A study of Mus musculus with 6 samples.

Results

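The genes described here encode 7 enzymes of heme synthesis (Alas1, Alad, Uros, Urod, Cpox, Ppox and Fech) and the 2 biliverdin reductases (Blvra and Blvrb). They were chosen by symbol and not by a threshold on measured values, although earlier results of these data were known. All 9 were found among the 21899 genes of the deposited expression table. All 9 also passed the filter on low values, set at 1 FPKM as the mean of all 6 samples, which left 10853 genes for the tests. FPKM is the number of fragments counted on a gene relative to the length of its exons and to the depth of the sample. It is meant to let levels be compared between genes and between samples. The comparison between genes rests on the exon lengths used.

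RNA was sequenced from subcutaneous tumors that adult male C57BL/6 mice carried after injection of LLC-luc cells, a mouse Lewis lung carcinoma line labelled with luciferase. All 3 groups were irradiated with a laser. The Laser group (n = 2) received saline and irradiation alone, the PC-La group (n = 2) received phycocyanin (PC), a light-absorbing protein of the cyanobacterium Spirulina, and the SePC-La group (n = 2) received selenium-enriched phycocyanin (SePC) purified from Spirulina grown with selenite. The labels give a wavelength of 620 nm, 10 min of irradiation, injections every 5 days and 4 h between injection and irradiation. The methods of the study state a slightly longer wavelength and a shorter interval. They also give a light dose and an intensity at which 10 min would fall short of that dose. No tumor without irradiation and no PC or SePC tumor kept in the dark is among the sequenced samples. The labels do not say whether the 2 samples of a group came from separate mice, so the p-values measure only the spread between these samples.

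Heme is built by a chain of enzymes that begins in the mitochondrion, continues in the cytosol and ends in the mitochondrion again. The last intermediate before iron is inserted, protoporphyrin IX, absorbs light and produces singlet oxygen, and photodynamic therapy with aminolevulinic acid makes use of it. Heme is opened by heme oxygenases to biliverdin, which biliverdin reductase converts to bilirubin, a lipid-soluble antioxidant. The chromophore of phycocyanin, phycocyanobilin, is an open-chain tetrapyrrole of the same chemical family as biliverdin.

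None of the 9 genes passed a test between the treatments. In none of the 3 comparisons did a gene of the set reach an unadjusted p under 0.05 in limma, the criterion of the study (absolute log2 fold change over 1 with an unadjusted p under 0.05), or a Benjamini-Hochberg adjusted p under 0.05. Of all genes tested, an unadjusted p under 0.05 was reached by 5.78% between PC-La and Laser, 12.1% between SePC-La and Laser and 24.3% between SePC-La and PC-La. The criterion of the study was met by 1.29%, 0.682% and 2.98% of the genes, and an adjusted p under 0.05 by 0% in each comparison. With only the 4 samples compared in the fit, 637 of all genes had an adjusted p under 0.05 in limma between SePC-La and PC-La, and 0 of the 9 genes did. The fitted log2 fold changes of the 9 genes, on the log2(FPKM + 1) scale, ran from -0.49 to 0.53 over the 27 values, and in 24 of the 27 the 95% interval lay wholly within -1 to 1. Intervals of this width leave room for smaller changes, so the values do not show that the groups were alike. Leaving out 1 sample at a time brought up to 2 of the 9 genes under an unadjusted p of 0.05 in a comparison, namely Alad and Uros in PC-La against Laser without Laser replicate 1, Alas1 in the same comparison and Ppox in SePC-La against Laser without Laser replicate 2, Uros and Alas1 in SePC-La against PC-La without either Laser replicate, and Blvrb in SePC-La against Laser without either SePC-La replicate and in SePC-La against PC-La without SePC-La replicate 2. With limma's voom method on recovered reads, an alternative chosen after seeing the data, 1 gene reached an unadjusted p under 0.05 between PC-La and Laser (Uros), 0 between SePC-La and Laser and 1 between SePC-La and PC-La (Alas1).

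**Figure D1:**
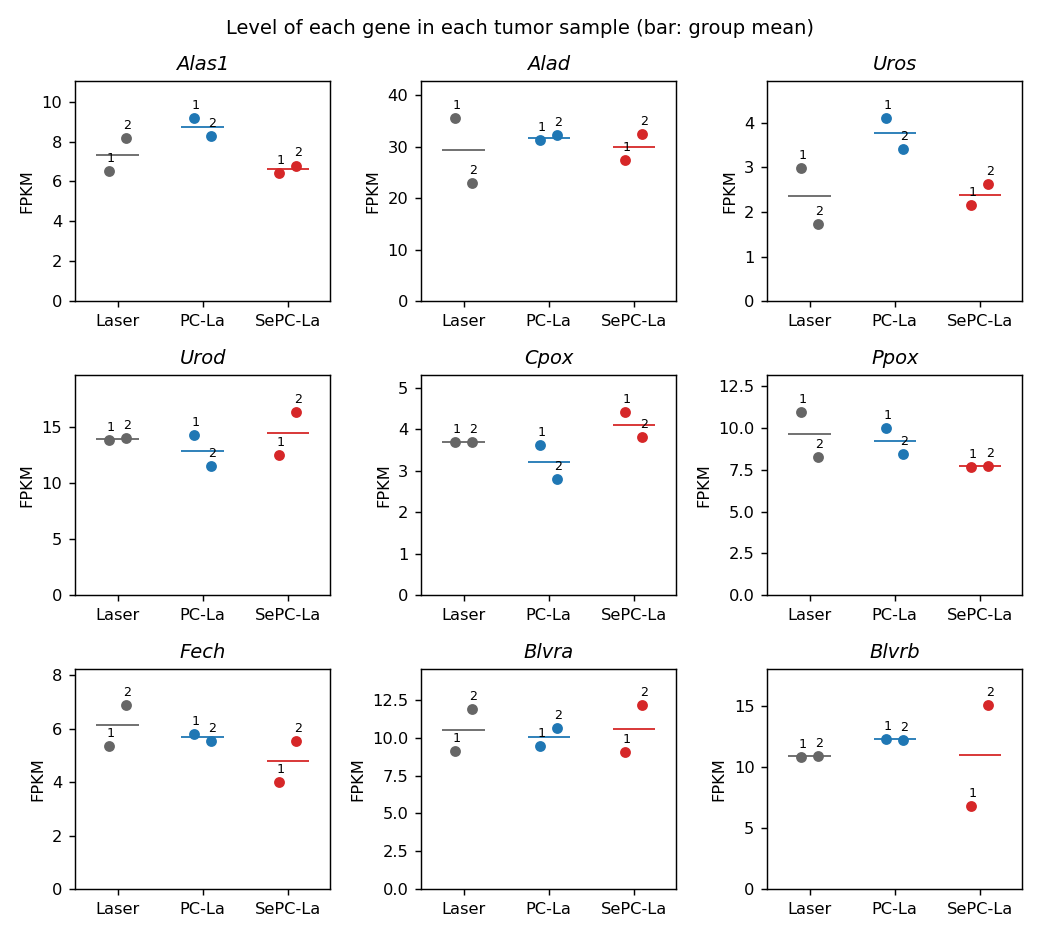
Expression level (FPKM, linear axis from 0) of each of the 9 genes in the 6 tumor samples. Points are single samples numbered by replicate and bars are group means of 2. The ratio of the highest to the lowest sample runs from 1.34 (Blvra) to 2.38 (Uros). The SePC-La points of Blvrb lie apart at 6.82 and 15.0 FPKM.

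As medians over the 9 genes, the log2 fold change was -0.05 for PC-La against Laser (5 genes below 0), 0.01 for SePC-La against Laser (4 below 0) and -0.22 for SePC-La against PC-La (6 below 0). The medians over all genes tested were -0.00062, -0.06 and -0.07. Groups that did not overlap, with both samples of one above both of the other, were found for 4 of 9 genes between PC-La and Laser, for 2 of 9 between SePC-La and Laser and for 5 of 9 between SePC-La and PC-La. Over all genes tested the shares were 42%, 40.6% and 65.5%, so no count stood far above the background. Both comparisons with Laser share the same 2 Laser samples, and both comparisons with SePC-La share the SePC-La samples.

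By FPKM, Alad was the most abundant, at 30.3 ± 4.48 FPKM (SD over the 6 samples). It was the only gene of the set whose range did not overlap that of the next, Urod, at 13.8 ± 1.67 FPKM. Below Urod followed Blvrb at 11.3 ± 2.69 FPKM, Blvra at 10.4 ± 1.41, Ppox at 8.86 ± 1.33, Alas1 at 7.56 ± 1.14, Fech at 5.53 ± 0.92, Cpox at 3.67 ± 0.52 and Uros at 2.84 ± 0.87. From Urod downward, every neighbouring pair in this order overlapped in its range over the samples, although Ppox was above Alas1 and Alas1 above Fech in 6 of 6 samples. Alad alone made up between 34.9% and 45.1% of the summed FPKM of the 7 synthesis enzymes, a sum that lay between 64.6 and 79.1 FPKM. The order and this share depend on the exon length that FPKM divides by, 1871 bases for Alad and 13838 for Fech. In recovered reads Fech was above Alad in every sample, with 804 to 1680 reads against 739 to 1059.

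Alas1, on chromosome 9 from 106233455 to 106248654 (minus strand, GENCODE M21 on GRCm38, as for all positions below), encodes the aminolevulinic acid synthase of most tissues, which makes the first and rate-limiting intermediate in the mitochondrial matrix. The Laser samples held 6.50 and 8.16 FPKM, the PC-La samples 9.19 and 8.29, and the SePC-La samples 6.42 and 6.80. Both PC-La samples were above the other 4, and the Laser and SePC-La samples overlapped. On the log2 scale SePC-La differed from PC-La by -0.35 (95% interval -0.71 to 0.0045, limma adjusted p = 0.21), and PC-La from Laser by 0.23 (95% interval -0.13 to 0.59, limma adjusted p = 0.753). A non-coding antisense gene shares 7.53% of the exonic bases of Alas1, and whether the authors counted by strand is not given in the sources used here.

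Alad, on chromosome 4 from 62509169 to 62519918 (minus strand), encodes the cytosolic dehydratase that joins pairs of aminolevulinic acid into porphobilinogen. It had FPKM values of 35.6 and 23.0 (Laser), 31.2 and 32.4 (PC-La) and 27.3 and 32.4 (SePC-La). The highest and the lowest of the 6 values were both Laser samples. The Laser replicates stood 9.20 standard errors of read counting apart on the log2 scale. The 3 fitted differences ran from -0.09 to 0.15, and the difference between PC-La and Laser went to -0.16 when Laser replicate 2 was left out and to 0.45 when Laser replicate 1 was left out.

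Uros, on chromosome 7 from 133686243 to 133710072 (minus strand), encodes the synthase that closes the tetrapyrrole ring to uroporphyrinogen III. It had the lowest mean of the set, with 2.99 and 1.73 FPKM (Laser), 4.12 and 3.42 (PC-La) and 2.15 and 2.63 (SePC-La), from 109 to 230 reads. Both PC-La samples were above the other 4. In PC-La against Laser it had the largest log2 fold change of the set, 0.53 (95% interval -0.01 to 1.06, unadjusted p = 0.0518, limma adjusted p = 0.753), or 1.6 times as a ratio of mean FPKM, and in SePC-La against PC-La it was -0.49 (95% interval -1.03 to 0.04, limma adjusted p = 0.229). The PC-La difference from Laser was 0.80 when Laser replicate 1 was left out and 0.25 when Laser replicate 2 was left out. It crossed an unadjusted p of 0.05 in limma with both other scalings and without a trend, and did not without robust estimation. The 7 fibroblast markers, all measured above the filter, had a summed level of 1243 and 288 FPKM (Laser), 1717 and 1568 (PC-La) and 122 and 634 (SePC-La), with no defining marker at 0 in all samples. The PC-La samples were the 2 highest for the sum, as for Uros, and for 3 of the 7 markers (Col3a1, Dcn and Lum), which make up most of it, but not for Col1a1, Col1a2, Pdgfra and Pdgfrb. The sum of 9 macrophage markers was also highest in PC-La, at 882 and 936 FPKM against 375 to 714 in the other samples. The PC-La samples were the 2 highest for 5 of these 9 markers (Adgre1, C1qa, C1qb, C1qc and Csf1r), but not for Cd68, Mrc1, Marco and Cd163. The part of either cell type in the Uros values was not tested. In bulk tumors, fewer cells of a type and less RNA per cell cannot be told apart.

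Urod, on chromosome 4 from 116989965 to 116994413 (minus strand), encodes the decarboxylase that yields coproporphyrinogen in the cytosol. The Laser samples were nearly equal at 13.9 and 14.1 FPKM, while PC-La had 14.3 and 11.5 and SePC-La 12.5 and 16.4. All 3 groups overlapped, and the fitted differences ran from -0.11 to 0.15.

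Cpox, on chromosome 16 from 58670292 to 58717636 (plus strand), encodes the oxidase of the mitochondrial intermembrane space that yields protoporphyrinogen IX. The Laser samples held 3.70 and 3.70 FPKM, the PC-La samples 3.61 and 2.81, and the SePC-La samples 4.43 and 3.80. The 3 groups did not overlap, with PC-La lowest and SePC-La highest. The differences were small beside the spread, at 0.28 for SePC-La against PC-La (95% interval -0.10 to 0.66, limma adjusted p = 0.30) and 0.12 for SePC-La against Laser (95% interval -0.26 to 0.50, limma adjusted p = 0.76).

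Ppox and Fech encode the last enzymes of the pathway, which form protoporphyrin IX and insert iron into it at the inner mitochondrial membrane. Ppox, on chromosome 1 from 171275990 to 171281186 (minus strand), had FPKM values of 11.0 and 8.29 (Laser), 9.99 and 8.46 (PC-La) and 7.69 and 7.74 (SePC-La). Both SePC-La samples were below the other 4, with a log2 fold change of -0.28 against Laser (95% interval -0.68 to 0.13, limma adjusted p = 0.517). Of the exonic bases of Ppox, 17.5% are shared with B4galt3 on the opposite strand, so part of its reads could belong to that gene.

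Fech, on chromosome 18 from 64452914 to 64490251 (minus strand), had FPKM values of 5.37 and 6.88 (Laser), 5.80 and 5.55 (PC-La) and 4.02 and 5.54 (SePC-La). SePC-La replicate 1 was the lowest sample, and SePC-La replicate 2, at 5.54, lay just under PC-La replicate 2. On the log2 scale the SePC-La mean stood at -0.31 against Laser (95% interval -0.75 to 0.14, limma adjusted p = 0.516) and -0.22 against PC-La (95% interval -0.66 to 0.22, limma adjusted p = 0.469). Without SePC-La replicate 1 the latter was -0.03.

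Blvra, on chromosome 2 from 127070665 to 127097084 (plus strand), encodes biliverdin reductase A, which reduces the biliverdin formed by heme oxygenases to bilirubin. It had FPKM values of 9.10 and 11.9 (Laser), 9.44 and 10.7 (PC-La) and 9.06 and 12.2 (SePC-La), so that replicate 1 was the lower and replicate 2 the higher sample in each group and the 3 groups overlapped. Its differences were the smallest of the set, from -0.05 to 0.06, with 95% intervals between -0.51 and 0.52.

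Blvrb, on chromosome 7 from 27447978 to 27466144 (plus strand), encodes biliverdin reductase B, which acts on other biliverdin isomers and on flavins and is abundant in red blood cells. The Laser samples held 10.8 and 10.9 FPKM, the PC-La samples 12.3 and 12.2, and the SePC-La samples 6.82 and 15.0. The replicates agreed closely in Laser and PC-La and differed by 2.2 times in SePC-La, where they held the lowest and the highest of the 6 values. That gap, from 274 and 730 reads, was 11.2 standard errors of counting and the widest of the set. The direction of its change in SePC-La therefore rests on the sample kept, with a log2 fold change against Laser of -0.08 (95% interval -0.86 to 0.70, limma adjusted p = 0.93), 0.44 without SePC-La replicate 1 and -0.60 without SePC-La replicate 2.

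Markers of other cells differed between the same SePC-La samples. The 9 macrophage markers were all above the filter, with none at 0 in all samples. They summed to 642 and 698 FPKM (Laser), 882 and 936 (PC-La) and 375 and 714 (SePC-La). The sum was lowest where Blvrb was lowest, as was the fibroblast sum (122 FPKM). Cd68 and Marco of the macrophage list were not lowest there, nor were Col1a1, Col1a2 and Pdgfrb of the fibroblast list. Of 13 erythroid markers, 12 were listed and 5 passed the filter (4 globin genes and Alas2), with sums of 127 and 13.7 FPKM (Laser), 264 and 362 (PC-La) and 614 and 934 (SePC-La). Gata1, Klf1 and Rhag were under 1 FPKM in every sample. Within SePC-La, the erythroid sum and Blvrb were both higher in replicate 2. The erythroid sum was far higher in SePC-La replicate 1 than in either Laser sample, while Blvrb was lower there. The part of these cells in the Blvrb values was not tested.

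To show the sequence before the start of each reductase gene, the 250 bases upstream of the RefSeq start (build GRCm38.p6) are printed 5′ to 3′ for Blvra (chr2:127070407-127070656, plus strand) and Blvrb (chr7:27447728-27447977, plus strand). Capitals mark the letters of the motifs searched.
Blvra: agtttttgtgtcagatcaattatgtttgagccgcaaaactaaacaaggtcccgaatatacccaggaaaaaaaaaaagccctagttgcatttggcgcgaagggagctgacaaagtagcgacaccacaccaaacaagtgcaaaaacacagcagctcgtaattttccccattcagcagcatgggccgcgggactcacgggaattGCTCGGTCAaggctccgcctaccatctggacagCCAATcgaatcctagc
Blvrb: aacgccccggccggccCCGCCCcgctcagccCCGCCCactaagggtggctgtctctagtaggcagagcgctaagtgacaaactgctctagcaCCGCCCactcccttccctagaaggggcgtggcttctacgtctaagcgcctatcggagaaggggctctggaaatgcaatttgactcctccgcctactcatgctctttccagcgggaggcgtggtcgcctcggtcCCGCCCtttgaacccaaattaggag
The motifs were searched on both strands as exact letters, and none contains another. Blvra held 1 match to the antioxidant response element (TGACNNNGC, here on the other strand), which 10.2% of the 32851 upstream windows of that length hold, and 1 CCAAT box (CCAAT, in 33.8%). Blvrb held 4 GC boxes (CCGCCC, in 32.7%) and no match to the other motifs.

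Upstream windows were found in RefSeq for 8 of the 9 genes, 12 windows in all since some genes have a second start. The Alad windows overlap each other, as do those of Alas1, so a match in shared bases counts for each window. Of the 12 windows, 8 had an observed to expected ratio of CpG above 0.6, against 34% of all windows, and 6 of the 8 genes had such a window. The shares of all windows cover 27025 genes, whether or not they were expressed in these tumors. None of the 12 windows held the TATA box letters TATAAA, against 12.4% of all windows. The E-box letters CACGTG (in 6.02% of all windows) were found in 4 of the 12 windows. These lie upstream of RefSeq starts of 3 of the 8 genes (Alad, in both of its overlapping windows, Urod and Uros). The letters of the NRF1 site (GCGC on both sides of NN, in 4.98% of all windows) were found in 2 of the 12 windows, with 2 matches for Alas1 and 1 for Uros. Both windows are upstream of a RefSeq start that lies within the GENCODE M21 bounds of the gene. The matches of Alas1 and Uros therefore lie inside the gene positions given above. These matches, in capitals with 10 bases on each side and on the minus strand, are shown because Alas1 and Uros had the smallest p of the set.
Alas1, chr9:106247935-106247964: gcttcggcgcGCGCGTGCGCgcggcaggcc
Alas1, chr9:106247906-106247935: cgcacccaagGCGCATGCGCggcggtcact
Uros, chr7:133709323-133709352: cggtcacactGCGCCTGCGCgagtcccgcc
A match is a description of the letters and not a measurement of binding.

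The replicates of a group often differed by more than read counting allows. Of the 27 replicate pairs (9 genes in 3 groups), 16 differed by over 2 standard errors of counting on the log2 scale, 6 of 9 in Laser, 4 of 9 in PC-La and 6 of 9 in SePC-La. The share over all genes tested was not computed, so these counts do not set the 9 genes apart. On the log2(FPKM + 1) scale, the median absolute replicate gap of the 9 genes was 0.31 (Laser), 0.16 (PC-La) and 0.24 (SePC-La). Over all genes tested it was 0.23, 0.11 and 0.19. Counting error was small, since the genes had between 109 and 1680 reads per sample, and the totals recovered per sample ran from 14447792 to 17649489 reads. In SePC-La, replicate 2 was above replicate 1 for 8 of the 9 genes, all but Cpox, against 55.6% of all genes tested. In PC-La, replicate 2 was above replicate 1 for 2 of 9, against 50.1%.

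**Figure D2:**
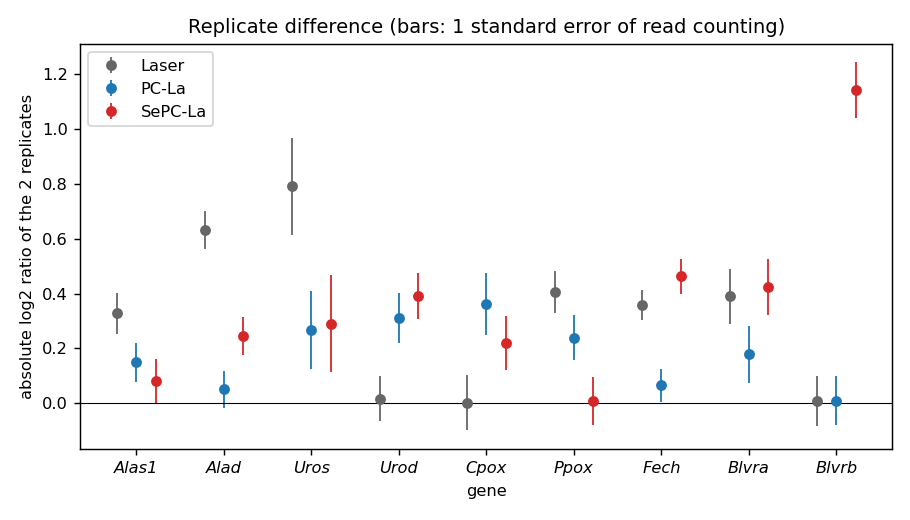
Absolute log2 ratio of the 2 replicates of each group for the 9 genes. Bars are 1 standard error of read counting. Blvrb in SePC-La stands highest at 1.14, and Uros (0.79) and Alad (0.63) lead in Laser.

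Heme breakdown and the erythroid start of the pathway were described by 3 further genes. Hmox2, the constitutive heme oxygenase, had FPKM values of 19.3 and 16.5 (Laser), 19.8 and 19.9 (PC-La) and 18.3 and 21.3 (SePC-La), with no call in any comparison.

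Hmox1, the inducible heme oxygenase that makes the substrate of Blvra, was the exception in size. On chromosome 8 from 75093621 to 75100589 (plus strand), it had FPKM values of 265 and 117 (Laser), 83.4 and 50.4 (PC-La) and 369 and 315 (SePC-La). The 3 groups did not overlap. It met the criterion of the study in SePC-La against PC-La, by 2.38 ± 0.43 on the log2 scale (SE; limma adjusted p = 0.126), and in PC-La against Laser, by -1.43 ± 0.43 (SE; limma adjusted p = 0.753). The second call was lost without PC-La replicate 2 (-1.07, unadjusted p = 0.0922 in limma) and fell under the fold of the criterion without Laser replicate 1 (-0.84). Against Laser, the SePC-La difference was 0.95 (limma adjusted p = 0.437), and it went to 1.53 without Laser replicate 1 and to 0.36 without Laser replicate 2. With median-ratio scaling it met the criterion (1.03, unadjusted p = 0.0494 in limma). Neutrophil markers were higher in the same samples, with sums over 8 genes (5 past the filter, none at 0 in all samples) of 148 and 32.0 FPKM (Laser), 145 and 77.4 (PC-La) and 331 and 436 (SePC-La), and the SePC-La samples were the 2 highest for 6 of the 8. Their part in the Hmox1 values was not tested. Beside this, the summed level of Blvra and Blvrb was 19.9 and 22.8 FPKM (Laser), 21.7 and 22.9 (PC-La) and 15.9 and 27.2 (SePC-La), so that the ratio of Hmox1 to the reductases ran from 2.20 in PC-La replicate 2 to 23.3 in SePC-La replicate 1.

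Alas2, the erythroid counterpart of Alas1 on the X chromosome, had FPKM values of 1.48 and 0.66 (Laser), 3.57 and 4.67 (PC-La) and 5.59 and 8.94 (SePC-La). Against Laser it met the criterion both with PC-La (log2 fold change 1.33, limma adjusted p = 0.504) and with SePC-La (1.99, limma adjusted p = 0.376), while Alas1 was within 0.23 of Laser in both. At these low levels the pseudocount lowers the fold, and the ratios of mean FPKM to Laser were 3.85 and 6.78. With a pseudocount of 0.1 the log2 fold changes were 1.93 and 2.71, and with voom they were 2.05 and 2.87. The globin genes of the erythroid list were high in the same samples, and the part of red blood cells in the Alas2 values was not tested.

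**Figure D3:**
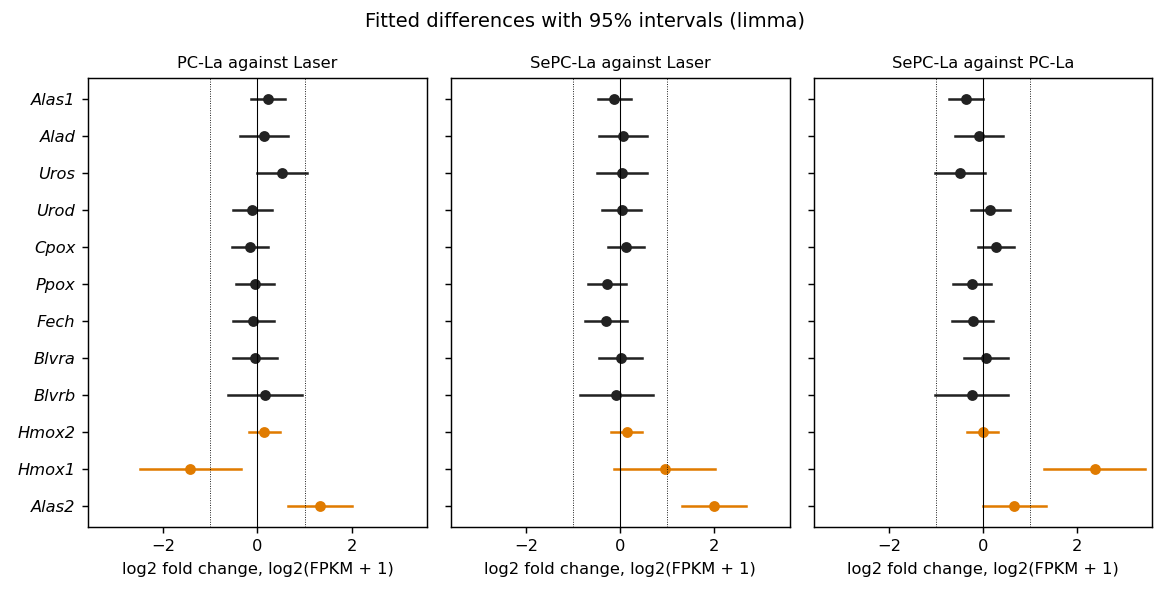
Fitted log2 fold change with its 95% interval (limma on log2(FPKM + 1), 2 samples per group) for the 9 genes in black and for Hmox2, Hmox1 and Alas2 in orange. Dotted lines mark -1 and 1. The black points lie between -0.49 and 0.53, whereas Hmox1 reaches 2.38 in SePC-La against PC-La and Alas2 1.99 in SePC-La against Laser.

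The range over all 6 samples, taken as the highest FPKM + 1 over the lowest FPKM + 1, was below the median of all genes tested (1.44) for 5 of the 9 genes. It was smallest for Blvra, at 1.31, which exceeded 26.8% of the genes. Uros, at 1.88, exceeded 82.3%, and Blvrb, at 2.05, exceeded 86.7%. As a plain ratio of FPKM, the range of Uros (2.38) was above that of Blvrb (2.20). Hmox1, at 7.21, exceeded 99.1% and Alas2, at 5.99, exceeded 98.8%.

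**Figure D4:**
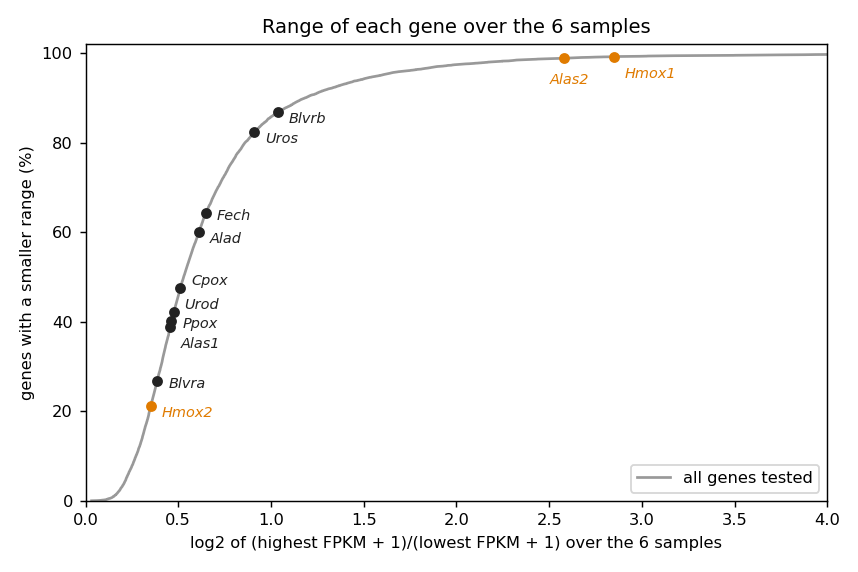
Range of each gene over the 6 samples (log2 of the highest FPKM + 1 over the lowest FPKM + 1) against the share of the 10853 tested genes with a smaller range. The axis ends at 4 and a few genes lie beyond it. The 9 genes (black) lie between 26.8% (Blvra) and 86.7% (Blvrb), and of the genes in orange Hmox2 lies at 21.1% and Hmox1 and Alas2 near the top of the curve.

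Of the 16 genes of porphyrin and heme transport, 12 passed the filter. An unadjusted p under 0.05 was reached by 2 of them in PC-La against Laser, 2 in SePC-La against Laser and 4 in SePC-La against PC-La, beside 5.78%, 12.1% and 24.3% of all genes. Slc48a1, which encodes the heme transporter HRG1 of lysosomal membranes, had FPKM values of 42.5 and 31.9 (Laser), 27.4 and 23.5 (PC-La) and 46.6 and 63.1 (SePC-La). The 3 groups did not overlap, and the gene met the criterion in SePC-La against PC-La (1.07 ± 0.21 on the log2 scale, SE; limma adjusted p = 0.126). It fell under the fold of the criterion without PC-La replicate 2 (0.96) and without SePC-La replicate 2 (0.85).

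Flvcr1, whose product has been described as a heme exporter of the plasma membrane, had FPKM values of 12.9 and 15.2 (Laser), 8.42 and 7.40 (PC-La) and 10.7 and 11.3 (SePC-La). It was lower in PC-La than in Laser with a log2 fold change of -0.76 (unadjusted p = 0.0013, limma adjusted p = 0.43), and higher in SePC-La than in PC-La by 0.43 (unadjusted p = 0.0191, adjusted p = 0.153). In SePC-La against PC-La, Abcc1 (0.80) and Slc25a39 (0.42), which encode an organic anion exporter and a mitochondrial glutathione carrier, were also higher at an unadjusted p under 0.05, with limma adjusted p = 0.126 and 0.134. Against Laser, the SePC-La difference passed an unadjusted p of 0.05 for Slc48a1 (0.55) and Abcc1 (0.46). Leaving out 1 sample moved some of these folds by over 1.5 times and ended their calls, namely Abcc1 in SePC-La against Laser without Laser replicate 2 (0.24), Slc48a1 in the same comparison without Laser replicate 2 (0.34) or SePC-La replicate 2 (0.33), and Slc48a1 in PC-La against Laser (-0.52) without Laser replicate 1 (-0.32). Other calls were lost in p with a smaller or no move of the fold. In SePC-La against PC-La these were Slc25a39 without PC-La replicate 1 (0.44) or 2 (0.40) and Flvcr1 without PC-La replicate 2 (0.35) or SePC-La replicate 2 (0.40). In PC-La against Laser it was Slc48a1 without PC-La replicate 1 (-0.62) or 2 (-0.41). In SePC-La against Laser it was Abcc1 without SePC-La replicate 1 (0.33) or 2 (0.58), and, with the fold unchanged, Abcc1 and Slc48a1 without a PC-La sample, which is not in that comparison.

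Of 15 regulators of heme synthesis, 14 passed the filter, and an unadjusted p under 0.05 was reached by 0 in PC-La against Laser, 1 in SePC-La against Laser and 3 in SePC-La against PC-La in limma, beside the same shares of all genes. Ireb2, which encodes an iron-responsive RNA-binding protein, had FPKM values of 12.4 and 10.6 (Laser), 11.7 and 13.1 (PC-La) and 7.16 and 8.87 (SePC-La). Both SePC-La samples were below the other 4, with log2 fold changes of -0.47 against Laser (limma adjusted p = 0.382) and -0.58 against PC-La (limma adjusted p = 0.134). In SePC-La against PC-La, Lonp1 (0.77), a mitochondrial protease known to degrade the Alas1 protein, and Glrx5 (0.41), a glutaredoxin of iron-sulfur cluster assembly, were higher at an unadjusted p under 0.05, with limma adjusted p = 0.16 and 0.186. The fold of Lonp1 went to 0.46 without SePC-La replicate 1 and that of Glrx5 to 0.25 without SePC-La replicate 2, with no call. Without PC-La replicate 1 or 2 both missed the threshold with folds of 0.82 and 0.71 for Lonp1 and 0.37 and 0.44 for Glrx5. Ireb2 missed it against Laser without Laser replicate 1 (-0.37) or SePC-La replicate 1 (-0.34) and against PC-La without PC-La replicate 2 (-0.50) or SePC-La replicate 1 (-0.44). In the fit of all 6 samples, none of the transport and regulator genes had an adjusted p under 0.05. With only the 4 samples compared, the limma adjusted p in SePC-La against PC-La was 0.0419 for Slc48a1, 0.0436 for Abcc1 and 0.026 for Hmox1. Without Laser replicate 1 it was 0.0487 for Flvcr1 in PC-La against Laser and 0.0409 for Alas2 in SePC-La against Laser.

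By the highest Pearson r of log2(FPKM + 1) over the 6 samples among the 7490 genes whose mean reached 5 FPKM, the gene most like Alas1 was Mpp1, that most like Alad was Epn1, and that most like Uros was Rraga. For Urod, Cpox and Ppox these were Nagpa, Rhebl1 and Hp1bp3, and for Fech, Blvra and Blvrb they were Ccni, Tmem158 and Arhgap9. The values of r ran from 0.966 for Mpp1 to 0.998 for Rraga. These are descriptions over 6 samples that share libraries and groups, and each is the highest of many.

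Of the labelled tissue, markers of lung epithelium were near 0, with 4 of 9 (Sftpd, Scgb1a1, Scgb3a2 and Nkx2-1) at 0 in all samples and a summed level of 0.679 to 1.74 FPKM, while of 6 keratin epithelial markers only Krt8 and Krt18 passed the filter, at 78.1 to 166 FPKM, and Krt7, Krt19, Epcam and Cdh1 lay between 0.018 and 1.17 FPKM. Skeletal muscle markers were highest in Laser, with sums of 158 FPKM in replicate 2 and 24.0 in replicate 1, against 1.65 to 6.46 in the PC-La and SePC-La samples. The Laser samples were the 2 highest for 9 of the 10 markers. Across genes, log2 values correlated at 0.946 between the Laser samples, 0.992 between the PC-La samples and 0.972 between the SePC-La samples.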

How the data were processed

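The 6 tumor samples were grouped by their titles as Laser, PC-La and SePC-La (n = 2 each). The authors deposited FPKM values, 1 column per sample. The submitters' processing notes name HISAT2 2.0.5, HTSeq 0.9.1, DESeq 1.30.0 and the build mm9. The unit was checked on the file itself: after multiplication by merged exon lengths of GENCODE M21 (GRCm38), between 97.7% and 97.9% of a sample's values above 0 were whole reads within 0.01, and reads were recovered from the unit so found. Positions are those of GENCODE M21, and no coordinates of mm9 were used.

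Values were used as deposited. limma 3.58.1 (R 4.3.3) was fitted to log2(FPKM + 1) of the 10853 genes whose mean reached 1 FPKM, with a mean for each group, a trend and robust estimation. p-values were Benjamini-Hochberg adjusted over all of them. The genes, lists and tests were chosen with earlier results of these data known. Named were all 9 genes, Hmox1, Hmox2 and Alas2, up to 4 listed transport or regulator genes with an unadjusted p under 0.05 per comparison, and the most similar gene of each. Some listed genes are not reported here. Standard errors of counting cover counting error only. The script was tested on simulated data. Other steps ran in pandas 2.3.3, NumPy 2.4.6 and, for plots, matplotlib 3.10.9 under Python 3.11.15.

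Each choice was changed in turn: the pseudocount (0.1), the filter (none, or a mean of 5 FPKM), the scaling (median-ratio or quantile), the variance model (trend or robust estimation dropped), the samples in the fit (the 4 compared, or all but 1) and the replicate number as a block. Voom on recovered reads and a block with crossed SePC-La numbers were added after the data were seen. Leaving a sample out leaves 1 in its group, which is then assumed to vary like the other groups.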

Additional observations from a re-analysis of the deposited data

How the results depend on the processing

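With 2 samples per group of bulk tissue, the intervals are wide and rest on a spread pooled over groups. Over 11 alternatives without a left-out sample, the 27 fold changes kept direction and side of the threshold in 280 cases, passed an unadjusted p of 0.05 in 10 and reversed in 1, Alad in SePC-La against PC-La with median-ratio scaling (0.012, from -0.09). Between PC-La and Laser, 1 of the 9 genes (Uros) passed with median-ratio scaling, quantile normalization, no trend, voom or the crossed block. Between SePC-La and PC-La, 1 passed with quantile normalization (Cpox), voom (Alas1) or the crossed block (Uros), and 2 with only the 4 samples compared (Uros and Alas1). Of all genes, 975 had an unadjusted p under 0.05 between PC-La and Laser without a filter, 403 with a minimum mean of 5 FPKM and 1122 with the crossed block, from 627, and 700 between SePC-La and Laser with only the 4 samples compared, from 1318. The criterion of the study was met between PC-La and Laser by 68 genes with a minimum of 5 FPKM and 222 with voom, from 140. Between SePC-La and Laser the pseudocount of 0.1 gave 129 genes, the minimum of 5 FPKM 46 and voom 133, from 74, and between SePC-La and PC-La the pseudocount of 0.1 gave 488 and the minimum of 5 FPKM 186, from 323. The median over the 9 genes was -0.082 between SePC-La and Laser with a minimum of 5 FPKM, which removes Uros and Cpox, and -0.12 between SePC-La and PC-La with quantile normalization. Other causes were not tested. An adjusted p under 0.05 was reached between SePC-La and PC-La by 637 genes with only the 4 samples compared, 6 with median-ratio scaling, 8 with quantile normalization and 3 with a minimum of 5 FPKM, from 0, and by none of the 9 genes in any alternative.

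The labels do not say whether samples with the same replicate number have anything in common across groups. Deviations of same-numbered samples correlated at 0.086 between Laser and PC-La, -0.43 between Laser and SePC-La and -0.18 between PC-La and SePC-La. With the replicate number as a block, 0 of the 9 genes passed an unadjusted p of 0.05 in limma in any comparison, and 452, 938 and 2026 genes did, in the order PC-La against Laser, SePC-La against Laser and SePC-La against PC-La. In that order the criterion was met by 133, 81 and 285 genes with the block. With the block, the differences from Laser of Slc48a1 (both groups) and Abcc1 (SePC-La) missed an unadjusted p of 0.05, and that of Hmox1 in SePC-La passed it.

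Without 1 sample at a time, the lone sample left in a group being assumed to vary like the other groups, the fold changes of the 9 genes reversed in 21 cases and passed the threshold in 11, of which 1 was also reversed. Between PC-La and Laser, 0 to 2 of the 9 genes passed, 204 (PC-La replicate 2 left out) to 2700 (Laser replicate 1 left out) of all genes had an unadjusted p under 0.05 and 71 to 664 met the criterion at the same extremes. Between SePC-La and Laser these were 0 to 1, 694 (PC-La replicate 2 left out) to 2121 (Laser replicate 2 left out) and 60 (either PC-La replicate left out) to 253 (Laser replicate 1 left out). Between SePC-La and PC-La these were 0 to 2, 876 (PC-La replicate 1 left out) to 3636 (Laser replicate 1 left out) and 169 (SePC-La replicate 1 left out) to 584 (SePC-La replicate 2 left out). The medians over the 9 genes ran from -0.049 to 0.088, -0.16 to 0.14 and -0.25 to 0.028. Fold changes that reversed ran, in PC-La against Laser, from -0.23 to 0.13 for Blvra, -0.24 to 0.067 for Fech, -0.16 to 0.45 for Alad, -0.26 to 0.030 for Urod and -0.23 to 0.13 for Ppox. In SePC-La against Laser they ran from -0.18 to 0.20 for Blvra, -0.25 to 0.36 for Alad, -0.24 to 0.31 for Uros, -0.27 to 0.021 for Alas1, -0.15 to 0.22 for Urod and -0.60 to 0.44 for Blvrb, and in SePC-La against PC-La from -0.14 to 0.25 for Blvra, -0.21 to 0.028 for Alad, -0.033 to 0.33 for Urod and -0.76 to 0.28 for Blvrb. An adjusted p under 0.05 was reached without Laser replicate 1 by 312 genes between PC-La and Laser, 97 between SePC-La and Laser and 639 between SePC-La and PC-La, and by 643 in the last without Laser replicate 2.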
